A study of Mus musculus with 9 samples.

Results

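Crystallins are the abundant soluble proteins of the vertebrate eye lens, and 10 genes of the lens were followed here on microarrays of mouse retinal organoids: the alpha-crystallins Cryaa and Cryab, the acidic beta-crystallins Cryba1, Cryba2 and Cryba4, the basic beta-crystallins Crybb1, Crybb2 and Crybb3, the gamma-family member Crygs and Mip. They were chosen by gene name, and every probe that the array design lists under one of these names was read, which gave 13 probes for 10 of the 37284 named genes on the array. Retinal organoids are retina-like tissues grown from mouse ES/iPS cells in floating aggregates. The 3 lines were wild type (WT), a Bhlhb4 knockout (B4KO, of the gene now named Bhlhe23) and an Islet-1 knockout (Isl1KO), engineered so that fewer bipolar cells form. Each was sampled once on DD10, once on DD16 and once on DD23, where DD stands for the day of differentiation. Each of the 9 samples was RNA of 5 pooled organoids, the labels name no strain or clone for any line, and no combination of line and day was repeated. The spread behind each test is therefore the departure of the 3 lines from a common course over days together with noise, and having 9 arrays sets how precise it can be.

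The alpha-crystallins belong to the small heat shock proteins, chaperones that hold unfolded proteins in solution. Cryaa is largely a lens protein, whereas Cryab is also made in muscle, glia and other tissues, and both are known from Mueller glia and neurons of the stressed retina. The beta- and gamma-crystallins share a fold of Greek key motifs and fill the lens fibre cells, and several beta-crystallins have also been found in the retina. Mip is aquaporin 0, the water channel and junction protein of lens fibre membranes, and it is a marker of those cells rather than a crystallin.

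The probes are shown first because 3 of the genes had a pair of probes that did not read alike. Positions are those of the array design on build mm9, the strand is the one the probe sequence reads, and no gene annotation of that build was used here, so it is not stated whether a probe lies in coding sequence. Cryab had 1 probe, at chr9:50564566-50564625 on the plus strand, shown up to a TAG stop codon (capitals) in the third reading frame of the probe. The letters after it are left out. Cryba1 had 1 probe, at chr11:77532943-77533002 on the minus strand, with a reading frame open from end to end.
Cryab: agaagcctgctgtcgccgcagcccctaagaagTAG
Cryba1: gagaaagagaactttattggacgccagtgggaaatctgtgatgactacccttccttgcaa

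For Cryaa, Cryba4 and Crybb2 both probes of the pair hold an open reading frame. The Cryaa dimmer probe lies at chr17:31815402-31815461, 3148 bases before the brighter one at chr17:31818550-31818609, both on the plus strand. The array design lists it for fewer RefSeq transcripts than the brighter probe, so it need not read every Cryaa transcript. The Cryba4 dimmer probe lies at chr5:112675760-112675819 on the minus strand. The array design gives the brighter Cryba4 probe no curated RefSeq transcript. That probe starts 244 bases away on the same strand and holds a polyadenylation hexamer from its base 37 on, so its open frame need not be coding sequence. The Crybb2 dimmer probe lies at chr5:113494972-113495031 on the minus strand. The brighter Crybb2 probe spans chr5:113497753-113498674 across a gap in the genome, and its last 30 bases are shown with an ATG in capitals.
Cryaa, dimmer probe: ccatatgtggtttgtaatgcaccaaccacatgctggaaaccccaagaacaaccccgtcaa
Cryba4, dimmer probe: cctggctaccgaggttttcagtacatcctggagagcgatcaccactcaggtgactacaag
Crybb2, dimmer probe: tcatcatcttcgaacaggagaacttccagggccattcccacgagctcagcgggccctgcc
Crybb2, brighter probe: acgccagagagtccaccATGgcctcagacc

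Signal intensity was scaled to the 75th percentile of each array, which was 897 to 1138 intensity units, and levels are the log2 of that ratio. A spot counts as detected where the scanner software flagged it well above background. This held for 57.3% to 67.8% of gene spots per array. The dimmest detected level of an array, called its detection limit below, ranged from -4.21 (WT DD16) to -5.40 (Isl1KO DD23). Dim genes were thus easier to detect on the Isl1KO arrays. Spots not well above background can lie above this limit, as the brighter Crybb2 probe did by 0.22 at B4KO DD16. Each fold given below as at least some value holds for this limit only, and a higher limit would give a smaller fold. The 3 B4KO arrays lie on a slide of their own and the WT and Isl1KO arrays share the other, so a difference of B4KO from WT or from Isl1KO cannot be told apart from a difference between slides. Each day kept its own column of arrays on both slides, and WT and Isl1KO lay in different rows of theirs, so day and column, and Isl1KO or WT and row, cannot be told apart. Of the targeted genes, the Bhlhe23 probe was well above background on 3 of 3 WT, 1 of 3 B4KO and 2 of 3 Isl1KO arrays. One Isl1 probe read -0.60 to 1.45 in WT and -1.63 to -0.44 in Isl1KO, and a second read -1.25 to 0.85 in WT and -0.92 to 0.10 in Isl1KO. Neither targeted gene was lost from its line's arrays altogether, and the labels do not say which stretch of either gene was removed, so these probes may lie outside it.

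Cryab, and Cryba4 by its brighter probe, were the only members well above background on all 9 arrays, and Mip was so on 0. Per array, 3 to 6 of the 10 members were well above background in WT, 3 to 4 in B4KO and 6 to 8 in Isl1KO. The share of all gene spots was 57.3% to 65.6% in WT, 58.2% to 60.5% in B4KO and 64.2% to 67.8% in Isl1KO. The Cryab probe lay between the 72.1 and 88.2 percentiles of all gene probes on an array. The 6 members Cryaa, Cryab, Cryba1, Cryba4, Crybb2 and Crygs had a probe well above background on at least 3 arrays and entered the test, while Cryba2, Crybb1, Crybb3 and Mip did not.

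**Figure D1:**
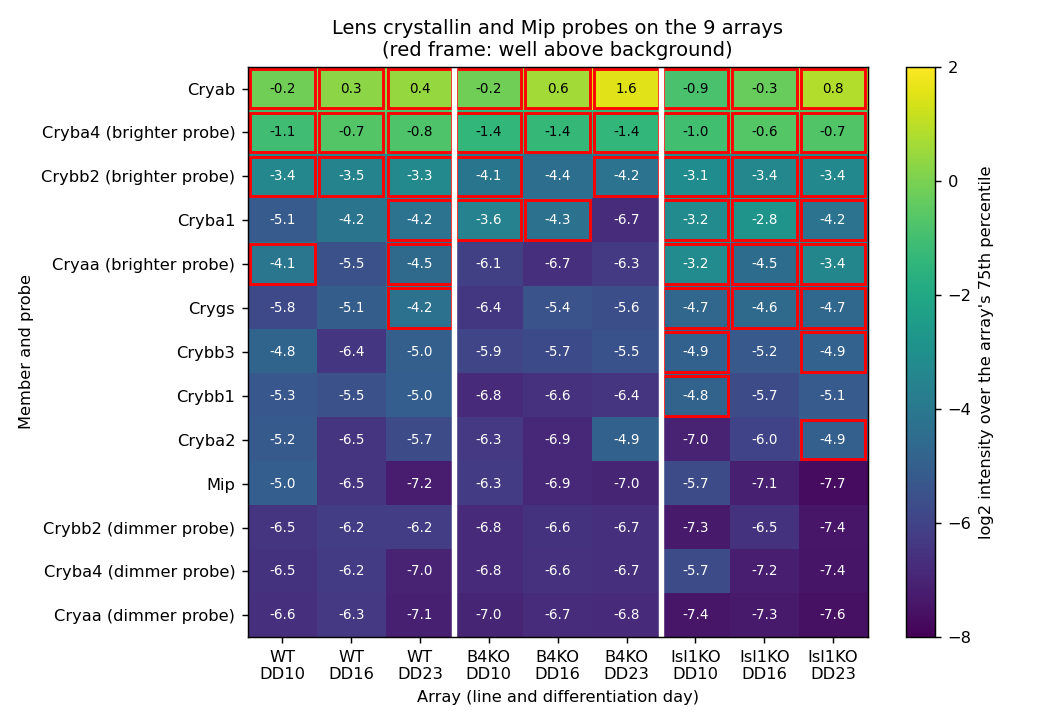
Level of each of the 13 probes (rows, ordered by mean level) on each of the 9 arrays (columns), as log2 intensity over the 75th percentile of the array, with a red frame where the spot was well above background. Cryab and the brighter Cryba4 probe are framed in all 9 columns, and the dimmer probes of Cryaa, Cryba4 and Crybb2 in none.

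Of the 2 members detected on all 9 arrays, Cryab was the one that changed over days. It is the broadly expressed chaperone of the alpha pair. In WT its level was -0.15 at DD10, 0.26 at DD16 and 0.42 at DD23. In B4KO it was -0.18, 0.61 and 1.57, and in Isl1KO -0.86, -0.34 and 0.85. Each line was lowest at DD10 and highest at DD23, and the 3 DD23 values (0.42 to 1.57) lay above the 3 DD10 values (-0.86 to -0.15).

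The mean over the 3 lines went from -0.40 ± 0.40 (SD, n = 3) at DD10 to 0.18 ± 0.48 at DD16 and 0.95 ± 0.58 at DD23. From DD10 to DD23 Cryab rose 2.54-fold, a log2 difference of 1.34 with a standard error of 0.25 and an adjusted p of 0.00439 in the limma model of all 9 arrays, adjusted by Benjamini-Hochberg over 23594 genes. It was the only member of the 6 tested that rose over this interval, and 0 fell, where 60.7% of all genes tested passed in either direction, 31.6% rose and 29.2% fell. The single steps were smaller. The step from DD10 to DD16 was 0.58 with a standard error of 0.25 (limma adjusted p = 0.110), and that from DD16 to DD23 was 0.77 with the same standard error (limma adjusted p = 0.0501). Over 21 other settings the DD10 to DD23 rise kept its call, at 1.11 to 1.69, and the DD16 to DD23 step passed in 7, among them the fit without WT DD23 (1.11, adjusted p = 0.00748). In the limma F test over the 3 days, Cryaa and Cryab passed, 2 of the 6 members against 65.7% of all genes.

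The rise was steeper in the knockout lines than in WT as single values, with 1.75 in B4KO and 1.71 in Isl1KO against 0.57 in WT. In a second limma model with a DD23 term for each knockout, this departure of Cryab was 0.99 for B4KO (adjusted p = 0.751) and 1.08 for Isl1KO (adjusted p = 0.871), and neither passed. For these terms limma called 0 of all genes tested, which is a background of 0%, and at an unadjusted p under 0.05 it counted 1429 genes for B4KO and 1161 for Isl1KO. Cryab did not pass between lines either. It differed by 0.49 between B4KO and WT (limma adjusted p = 0.208) and by -0.29 between Isl1KO and WT (limma adjusted p = 0.780). The Isl1KO minus B4KO difference was -0.78, with Isl1KO lower on all 3 days, and its limma adjusted p was 0.0754. It passed in 4 other settings, among them median centring (-0.92, adjusted p = 0.0353).

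**Figure D2:**
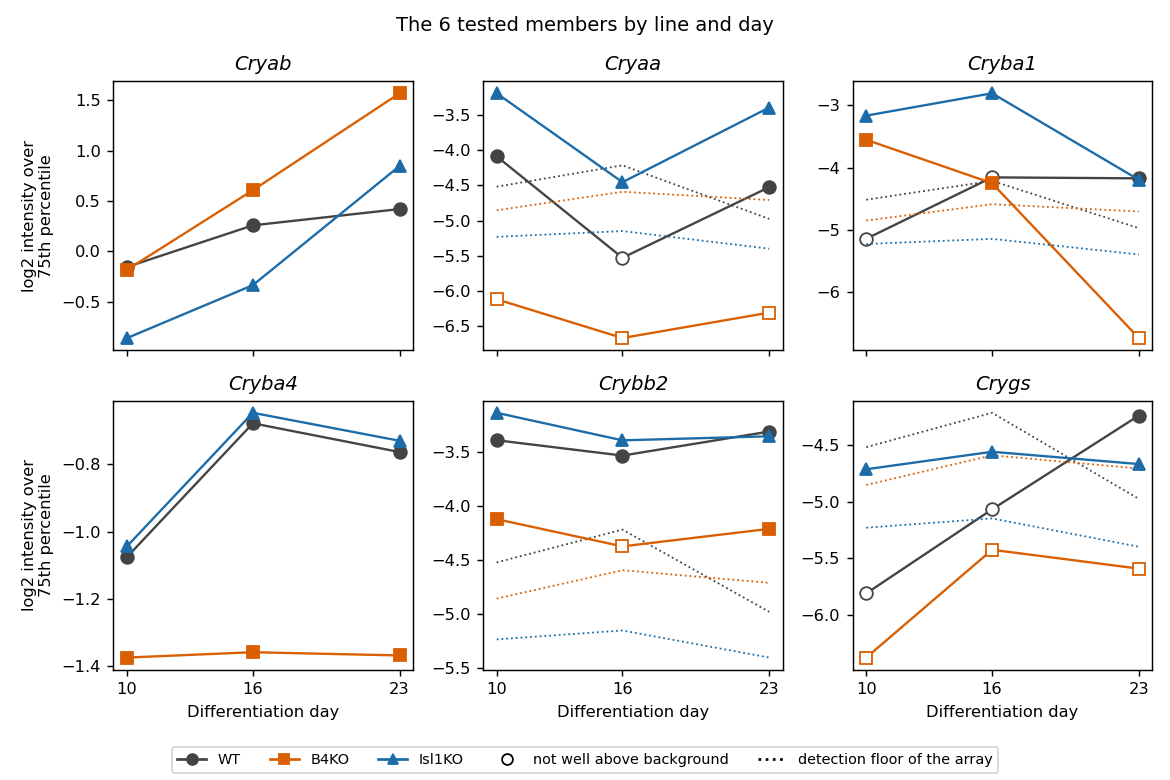
Level of the 6 tested members (log2 intensity over the 75th percentile of the array) against differentiation day, 1 point per array joined by line, with open points not well above background and dotted lines at the dimmest detected level of each array (not drawn for Cryab and Cryba4, which lie above it). Cryab climbs in all 3 lines, the Cryaa points of B4KO are all open, and the Cryba4 and Crybb2 points of B4KO lie under those of WT and Isl1KO on each day.

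Other genes moved over the same days in these pooled organoids, where fewer cells of a type and less RNA per cell cannot be told apart. Of 16 Mueller glia genes, 8 rose and 3 fell from DD10 to DD23, and their summed level was 159 to 205 times the 75th percentile at DD10, 260 to 263 at DD16 and 199 to 255 at DD23. Of these 16, Abca8a, Kcnj10 and Crym were not well above background on all arrays. Of 13 photoreceptor genes tested, 13 rose, and the list summed to 1.80 to 3.44 at DD10 and 325 to 411 at DD23. Of 13 pigment epithelium genes tested, 2 rose and 8 fell, with sums of 64.6 to 72.4 and 57.6 to 133. Ttr, among the 2 that rose, was the brightest of that list, with a level of up to 6.83. The defining genes Lrat and Rpe65 were well above background on 0 arrays. Of 10 amacrine genes, 8 rose and 1 fell, with sums of 19.7 to 25.9 and 42.6 to 51.6. The part of these cell types in the Cryab rise was not tested.

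Of 8 genes with an Hspb symbol, 6 were tested, and 3 rose and 1 fell from DD10 to DD23. The symbol alone does not make each of them a small heat shock protein. Hspb6 rose 4.55-fold (log2 difference 2.18, standard error 0.06, limma adjusted p = 1.67e-05), Hspb11 rose 1.67-fold, and Hspb8 fell by 1.76 on the log2 scale. Hspb2, the neighbour of Cryab in the genome, read -3.45, -4.46 and -3.93 in WT over the 3 days, -4.17, -4.08 and -2.63 in B4KO, and -3.99, -4.97 and -4.12 in Isl1KO. As single values, DD23 was above DD10 in B4KO and below it in WT and Isl1KO. In the heat shock response list, 2 of 13 genes rose and 9 fell over the same interval. The 2 that rose were Hspa1a (log2 difference 2.91) and its near-identical copy Hspa1b (2.20), whose probes may share signal.

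Cryaa, the alpha-crystallin of the lens, was dim and differed between the lines. Its brighter probe read -4.09, -5.53 and -4.53 at DD10, DD16 and DD23 in WT, of which DD10 and DD23 were well above background. In Isl1KO it read -3.19, -4.45 and -3.39, all well above background. In B4KO it read -6.12, -6.67 and -6.31, none well above background. At DD10 and DD23 Isl1KO read above WT and B4KO was not detected, and at DD16 Isl1KO alone was detected, at a level below the WT detection limit of that day.

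Cryaa was higher in Isl1KO than in B4KO, by a log2 of 2.69 with a standard error of 0.18 (limma adjusted p = 0.00042), and, with the B4KO values held at the detection limit, it was at least 2.05-fold higher. It was lower in B4KO than in WT by the same model (-1.65, standard error 0.18, adjusted p = 0.00171), but the bound over the 3 days was only 1.002-fold. As single days the bound was at least 1.70-fold lower at DD10 and at least 1.14-fold at DD23. There was none at DD16, where neither line was well above background. Between Isl1KO and WT the difference was 1.03 with a standard error of 0.18, with a limma adjusted p of 0.331, and WT was not well above background on 1 of the 3 days. With dim probes kept in the test this adjusted p was 0.0442. In that setting 12.2% of all genes passed between Isl1KO and WT, against 0.00424% with the filter. With dim values raised to the limit of their own array, Isl1KO minus B4KO was 1.04 (adjusted p = 0.0580) and B4KO minus WT -0.44 (adjusted p = 0.335).

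Over days, the Cryaa reading was lowest at DD16 in each line, although in B4KO no day was well above background. It fell by 1.08 on the log2 scale from DD10 to DD16 (standard error 0.18, limma adjusted p = 0.00665) and rose by 0.81 from DD16 to DD23 (adjusted p = 0.0157). It was the single member called at each of these steps, where 40.7% and 41.2% of all genes tested passed in either direction, and 3 and 2 of the 6 members had an unadjusted p under 0.05, as did 12035 and 11988 of the 23594 genes. Only 1 of the 3 DD16 arrays had Cryaa well above background, and the detection limit was highest at DD16 in each line. With dim values raised to the limit of their own array both calls were lost, at -0.38 and 0.21. The rise to DD23 was also lost with normexp background correction, at 0.17, and without WT DD16, WT DD23, Isl1KO DD16 or Isl1KO DD23. The dimmer Cryaa probe was not well above background on any array and read -7.55 to -6.33, within 0.12 of the median of the probes that were never detected.

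The brighter probes of Cryba4 and Crybb2, structural beta-crystallins of the lens, were lower in B4KO than in the other lines. The Cryba4 probe read -1.08, -0.68 and -0.76 in WT over the 3 days, -1.37, -1.36 and -1.37 in B4KO, and -1.04, -0.65 and -0.73 in Isl1KO. WT and Isl1KO lay within 0.03 of each other on each day, and the B4KO values lay under all 6 others. Cryba4 was lower in B4KO than in WT by a log2 of -0.53 with a standard error of 0.10 (limma adjusted p = 0.0135) and higher in Isl1KO than in B4KO by 0.56 (adjusted p = 0.0105), a call lost without B4KO DD23, Isl1KO DD16 or Isl1KO DD23. The B4KO to WT call did not hold with arrays centred on their median (-0.32, adjusted p = 0.0552) or without WT DD16, WT DD23, B4KO DD16 or B4KO DD23.

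The dimmer Cryba4 probe was well above background on 0 of 9 arrays and read -7.41 to -5.73. The difference described for Cryba4 is thus that of the brighter probe alone. The pair disagreed on detection on each of the 9 arrays, and levels of different probes are not set against each other.

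The brighter Crybb2 probe read -3.39, -3.53 and -3.31 in WT, -4.12, -4.37 and -4.21 in B4KO, and -3.13, -3.39 and -3.35 in Isl1KO. It was well above background on 8 of 9 arrays, the exception being B4KO DD16, and the B4KO values again lay under all others. Crybb2 was lower in B4KO than in WT by a log2 of -0.82 with a standard error of 0.08 (limma adjusted p = 0.00115). It was higher in Isl1KO than in B4KO by 0.94 (adjusted p = 0.00073), and by 0.44 with normexp (adjusted p = 0.00431). The Isl1KO minus WT difference was 0.12 (adjusted p = 0.726). With normexp background correction the B4KO to WT difference of Crybb2 was -0.23 (adjusted p = 0.0550) and that of Cryaa -0.27 (adjusted p = 0.170). The dimmer Crybb2 probe was well above background on 0 of 9 arrays, at -7.39 to -6.17.

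Crygs, a beta-gamma-crystallin of the lens cortex, read -5.81, -5.07 and -4.24 in WT over the 3 days, -6.38, -5.43 and -5.59 in B4KO, and -4.71, -4.56 and -4.67 in Isl1KO. It was well above background at WT DD23 and on the 3 Isl1KO arrays. Its probe, at chr16:22811417-22811476 on the minus strand, shares 43 bases with the RefSeq window around the start of the gene (assembly GRCm38.p6). The Isl1KO to B4KO difference was 1.15 with a standard error of 0.29 (limma adjusted p = 0.0362), and the bound on it was at least 1.05-fold. That call was kept in 8 of 19 other settings and lost, among others, without WT DD16, any single B4KO array, Isl1KO DD10 or Isl1KO DD16. From DD10 to DD23 the difference of Crygs was 0.80 with a limma adjusted p of 0.0518.

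In all, 3 of the 6 tested members were lower in B4KO than in WT and 0 were higher. They were Cryaa, Cryba4 and Crybb2, each by its brighter probe. Of all genes tested, 18.0% were lower, 3.99% higher and 22.0% passed in either direction. The median difference was -0.64 over the 6 members and 0.00 over all genes, but -0.45 over all genes with a mean level under -4 and -0.21 over those from -4 to -2. Between Isl1KO and B4KO 4 of 6 were higher and 0 lower, where 18.1% of all genes were higher, 3.80% lower and 21.9% passed in either direction. Between Isl1KO and WT limma called 0 of 6 members and 0.00424% of all genes, and 1 member and 1924 genes had an unadjusted p under 0.05. In the limma F test over genotypes 3 of 6 members passed (Cryaa, Cryba4 and Crybb2) against 20.2% of all genes. The Isl1KO to B4KO and B4KO to WT comparisons share the B4KO arrays.

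Calls of genes lower in B4KO than in WT were more frequent among dim genes, and 5 of the 6 tested members had a mean level under 0. Of genes with a mean level under -4, the class of Cryaa, Cryba1 and Crygs, 27.3% were lower in B4KO. This share was 28.2% from -4 to -2, the class of Crybb2, and 17.8% from -2 to 0, the class of Cryba4. It was 9.67% above 0, the class of Cryab. The part of signal level, or of the slide, in the members' differences was not tested.

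**Figure D3:**
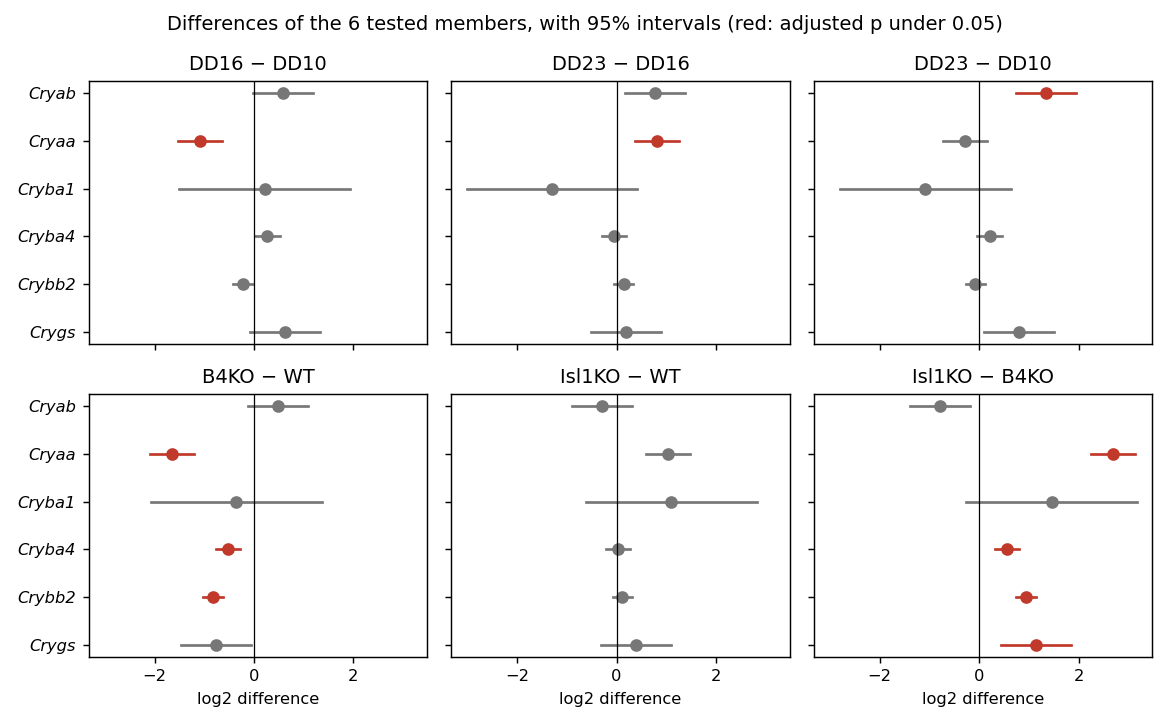
Log2 difference of each of the 6 tested members (dots) with its 95% interval from the limma model (bars) in 6 comparisons, in red where the adjusted p was under 0.05. Red dots lie left of 0 for 3 members in B4KO minus WT and right of 0 for 4 in Isl1KO minus B4KO, and Isl1KO minus WT has none.

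Cryba1, a beta-crystallin that is also known from retinal astrocytes and the pigment epithelium, took a different course in each line. It read -5.15, -4.16 and -4.17 in WT over DD10, DD16 and DD23, of which the last was well above background. In B4KO it went from -3.55 to -4.25 and then to -6.75, the last within 0.01 of the median of never-detected probes. In Isl1KO it read -3.16, -2.80 and -4.20, all well above background.

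Against DD10, the DD23 value was thus 0.97 higher in WT, 3.19 lower in B4KO and 1.03 lower in Isl1KO. Held at the detection limit, the B4KO change was at least 2.23-fold lower. The departure of B4KO at DD23 was -3.32 with a standard error of 0.76 in the second limma model (adjusted p = 0.751), and no Cryba1 comparison passed. Without WT DD23, Cryba1 was lower at DD23 than at DD10 (-1.92, limma adjusted p = 0.0371) and than at DD16 (-2.14, adjusted p = 0.0437). For each of these comparisons it was the only 1 of 20 other settings that gave a call. That fit takes B4KO DD23, which was not well above background, at its raw reading. Cryba1 was higher in Isl1KO than in B4KO on all 3 days, by 0.39 to 2.55, with a limma adjusted p of 0.201.

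The other 4 members stayed near or under the detection limit. Cryba2 was well above background at Isl1KO DD23 (-4.94) alone and read -6.99 to -4.88 on the other arrays. Crybb1 was so at Isl1KO DD10 (-4.82) alone, with -6.83 to -5.03 elsewhere. Crybb3 was detected at Isl1KO DD10 (-4.90) and DD23 (-4.86), with its WT values at -4.79, -6.42 and -4.98 and its B4KO values at -5.91, -5.74 and -5.48. Crybb3 at WT DD10 and Cryba2 at B4KO DD23 (-4.88) had values above their detected Isl1KO values and yet below the detection limits of those arrays.

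Mip, the lens fibre channel, was highest at DD10 in each line and nowhere well above background. It read -5.02, -6.46 and -7.20 in WT, -6.26, -6.87 and -6.96 in B4KO, and -5.68, -7.12 and -7.67 in Isl1KO. The detection limit itself moved between arrays, and at DD23 each Mip value lay below the median of never-detected probes, by 0.18 in WT, 0.20 in B4KO and 0.23 in Isl1KO.

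The rest of the lens programme was read from lists of related genes. Of 6 other lens crystallins, the gamma-crystallins Cryga to Crygf, 5 were tested. From DD10 to DD16 4 fell and from DD10 to DD23 5 fell, with 0 rising. Of all genes tested, 18.8% and 29.2% fell in these comparisons. Cryge read -0.91, -3.65 and -7.26 in WT, 0.16, -3.94 and -6.18 in B4KO, and 0.43, -3.22 and -7.29 in Isl1KO. From DD10 to DD23 it fell at least 30.3-fold (limma adjusted p = 7.81e-05), and Crygf fell at least 5.5-fold (adjusted p = 0.00101). The gamma-crystallins are close paralogs, so probes of this list may share signal, and the Cryga and Crygd probes, both among those that fell, were 86.5% identical over 52 bases. The Cryge and Crygf probes were 48.4% identical over their best overlap of 31 bases.

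**Figure D4:**
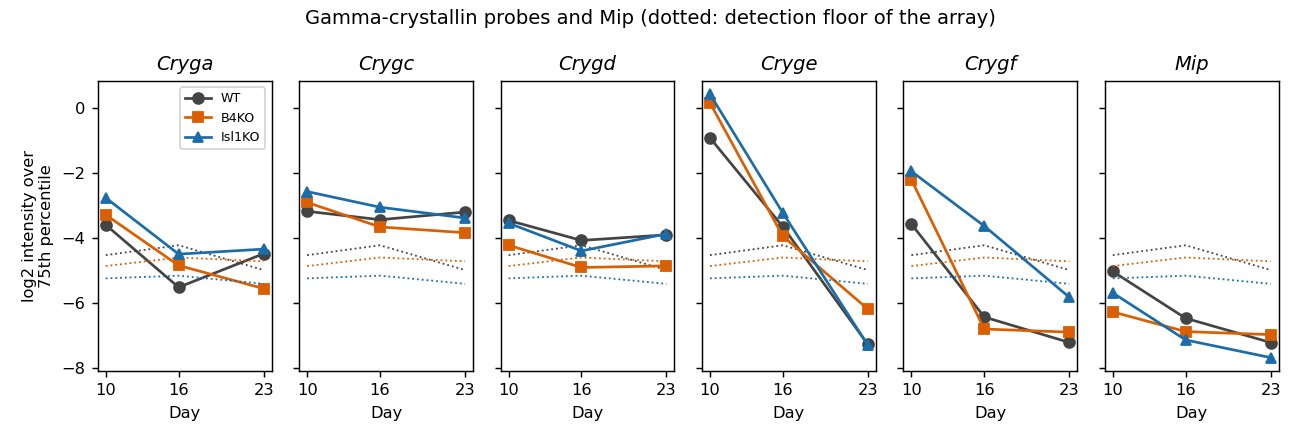
Level of the 5 tested gamma-crystallins and of Mip (log2 intensity over the 75th percentile of the array) against differentiation day by line, with dotted lines at the dimmest detected level of each array. Cryge and Crygf fall from DD10 to below the dotted lines at DD23 in all 3 lines, and Mip lies under them on all 9 arrays.

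The lens fibre and membrane list had 16 genes on the array, of which 8 were tested, and from DD10 to DD23 3 rose and 3 fell. Aqp5, Mip and Dnase2b were among those well above background on 0 arrays. Lim2, a fibre cell membrane protein, fell at least 1.58-fold, and Bfsp2, a beaded filament protein, fell 1.51-fold. Grifin, a lens galectin relative, rose 2.17-fold, and Tdrd7, an RNA granule protein, rose 2.14-fold. The summed level of the list was 6.01 to 7.30 times the 75th percentile at DD10, 5.36 to 6.47 at DD16 and 7.89 to 8.69 at DD23. Most of this sum came from Tdrd7 and Caprin2, with median levels of 1.32 and 1.21. The next brightest gene was Bfsp2, at -0.44.

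Of 16 tested transcription factors that act in the lens, 4 rose and 5 fell from DD10 to DD23. Most of them also act in the retina, among them Pax6 and Six3. Foxe3, a factor of the lens epithelium, was well above background on only 1 array, with a median level of -5.42, and did not enter the test. Maf, which activates crystallin genes in lens fibres, fell by 1.28 on the log2 scale from DD10 to DD16. Of 11 surface ectoderm and cornea genes 4 rose and 0 fell from DD10 to DD23, with Krt12, a corneal keratin, at least 3.35-fold higher at DD23. Of these 11, 3 were lower in B4KO than in WT. So were 18.0% of all genes tested, and 27.3% of those with a mean level under -4. Among the 3 were Krt5, at least 1.47-fold, and Krt14, at least 1.54-fold. They were well above background on 1 and 2 WT arrays, and on 0 B4KO arrays. The slide cannot be told apart from the line there.

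Among the members, the pair with the most alike values over the 9 arrays was Cryaa and Crybb2, with a Pearson r of 0.925. Cryab and Cryba1 ran against each other, with an r of -0.779. These are descriptions over 9 arrays that share 2 slides and 3 days. By the same measure the genes most like Cryab were Gpkow, Fbxo6 and Stat3, each with an r of 0.97. Those most like Cryaa were Rnf10, Cdh17 and Dera (0.95 to 0.98), and those most like Crybb2 were Zfp976, Ccdc169 and Etfbkmt (0.98 to 0.99). Cryba4 was nearest to Mup2, Nxpe2 and Olfr609 (0.98), Cryba1 to Numb, Gpr85 and Tfcp2l1 (0.86 to 0.96), and Crygs to Dcdc2b, Astn2 and Tmem88b (0.94 to 0.95).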

How the data were processed

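RNA of 9 samples was labelled with a low-input amplification kit and hybridised to single-colour Agilent arrays, per the labels' protocols. Agilent Feature Extraction 12.0.3.1 gave the spot intensity that the authors deposited, per the submitters' processing notes. The deposited processed intensity was background-subtracted, with well-above-background flags and a p-value against background for each spot, per the file headers. A deposited table of values held a ratio, which for bright spots was that intensity over a constant per array, as checked on the values; its dim end was not checked.

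Spots of a probe were averaged, 102 probes with outlier flags were left out, and each intensity was divided by its array's 75th percentile before log2. The probe read for a gene was the brightest of those flagged well above background on 3 or more of the 9 arrays. Genotype and day were fitted as additive terms with limma 3.58.1 in R 4.3.3 (4 residual and 2.01 prior degrees of freedom; 2 residual in the model with DD23 terms), with Benjamini-Hochberg adjustment over 23594 genes at 0.05. A fold against a line or day with no array well above background is a bound, with dim values raised to the lowest detected level of their array. That level is a lenient limit, since some spots not well above background lie above it, and the bound holds for that level only.

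Named genes were all members and, of each list and comparison, up to 2 genes that rose most and 2 that fell most among those called, of which some are given, and the 3 genes most like each tested member. Hspb2, Foxe3 and genes named for low detection were named after their values were seen. The members and the lists were chosen with earlier results of these data known. Lists were other lens crystallins, crystallin-named genes outside the lens family, lens fibre genes, lens transcription factors, genes with an Hspb symbol and heat shock response. Further lists were Mueller glia, pigment epithelium, photoreceptors, ganglion cells, amacrine cells, and surface ectoderm and cornea. Alternatives were other normalizations, background correction, filters, probe choices, the deposited table, moderation, the WT and Isl1KO slide alone, leaving out each array, and 2 settings that raise dim values to a detection limit, which were added after seeing the data. The labels name no replicates, so p-values rest on the departure of the 3 lines from a common course over days, together with noise. Some items withheld for evaluation are not reported here.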

Additional observations from a re-analysis of the deposited data

Results flagged for a closer look

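Cryba1 readings differed in opposite directions in different lines, by more than the scanner software's error for the spots, which holds no spread between samples; the difference between the lines was not tested by this reading, and the DD23 departures tested in the second limma model did not pass. From DD10 to DD16 it was lower by -0.70 in B4KO and higher by 0.36 in Isl1KO. From DD10 to DD23 it was higher by 0.97 in WT and changed by -3.19 in B4KO and -1.03 in Isl1KO. Each line has 1 array per day. WT DD10 and B4KO DD23 were not well above background, so the WT value is bounded at least 1.27-fold higher and the B4KO value at least 2.23-fold lower.

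A further 3 members that did not enter the test were well above background on an Isl1KO array while the WT array of the same day was not. Cryba2 at DD23 was 0.79 above WT on the log2 scale, Crybb1 at DD10 was 0.46 above WT, and Crybb3 at DD23 was 0.13 above WT. The WT readings were not well above background, and the bounds are at least 1.02-fold for Cryba2 and at least 1.09-fold for Crybb3, with none for Crybb1. The detection limit of the Isl1KO array was lower than that of the WT array on each of these days, and its part in the flags was not tested.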

How the results depend on the processing

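The number of members called (1 from DD10 to DD16, 1 from DD16 to DD23, 1 from DD10 to DD23, 3 for B4KO and WT, 0 for Isl1KO and WT, 4 for Isl1KO and B4KO) moved with these settings. With quantile normalization the 3 day comparisons had 2, 2 and 3, where 39.2%, 39.6% and 58.4% of all genes tested passed. With median centring DD10 to DD16 had 2 (40.3% of all genes) and DD10 to DD23 had 3 (60.5%). With normexp B4KO and WT had 1, where 21.0% of all genes passed. With no filter on dim probes Isl1KO and WT had 1 of the 6 members, where 12.2% of all genes tested passed, against 0.00424% with the filter. In that setting the other 4 members were tested too. Mip was lower at DD16 (-1.16, limma adjusted p = 0.0464) and DD23 (-1.62, adjusted p = 0.00818) than at DD10. Crybb1 was lower in B4KO than in WT (-1.33, adjusted p = 0.0166) and higher in Isl1KO than in B4KO (1.39, adjusted p = 0.0134). Of all genes, 18.0%, 35.1%, 10.6% and 13.4% passed in these comparisons. Mip was well above background on 0 arrays and Crybb1 on 1. With probes well above background on all 9 arrays, DD10 to DD16 had 0, B4KO and WT 1, and Isl1KO and B4KO 1, since 2 members remain in that test. There 48.5%, 24.2% and 22.6% of all genes passed. With trend and robust moderation DD16 to DD23 had 2 (44.0% of all genes). With dim values raised to the limit of their array Isl1KO and B4KO had 2 (20.1% of all genes). With all values raised to the highest limit DD10 to DD16 and DD16 to DD23 had 0 and Isl1KO and B4KO had 2. In that setting 40.1%, 41.4% and 19.3% of all genes passed. Leaving out each array gave 1 to 2, 0 to 2 and 1 to 2 for the 3 day comparisons and 2 to 5 for Isl1KO and B4KO. The shares of all genes were 25.0% to 38.5%, 27.6% to 39.6%, 51.0% to 59.5% and 13.9% to 20.3%. The DD16 to DD23 count was 0 without WT DD16, Isl1KO DD16 or Isl1KO DD23 and 2 without WT DD10 or WT DD23. The Isl1KO and B4KO count was 2 without B4KO DD23 or Isl1KO DD16. DD10 to DD16 had 2 without WT DD23 or B4KO DD10, and DD10 to DD23 had 2 without WT DD23, B4KO DD10, B4KO DD16, Isl1KO DD10 or Isl1KO DD23. The causes of the other changes were not tested, and no member's called value changed sign. Median centring moved the median of all genes in B4KO minus WT from 0.00 to 0.21, that in Isl1KO minus B4KO to -0.15, in DD23 minus DD16 to -0.11 and in DD23 minus DD10 to -0.18, and it moved the share of B4KO minus WT calls that were higher from 18.1% to 65.1% (30.7% with normexp). For Isl1KO minus B4KO that share went from 82.6% to 51.4% (68.4% with normexp), and for the day comparisons, in the order above, from 53.8% to 38.4%, 46.8% to 32.4% and 52.0% to 34.6%. The additive model matched line comparisons by day and day comparisons by line. No pairing of replicates was possible because the labels number no replicates and each line has 1 sample per day. Low signal over background limits every member except Cryab and the brighter probe of Cryba4. The array design gives that probe no curated RefSeq transcript, and the dimmer Cryba4 probe was well above background on 0 of 9 arrays.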

Other observations

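Of 7 tested genes that carry a crystallin name but are not lens structural proteins, 4 rose and 1 fell from DD10 to DD23. Crym, a thyroid hormone-binding protein that was also on the Mueller glia list, was not well above background at DD10 on any array, was at least 39.5-fold higher at DD16 and rose a further 16.8-fold from DD16 to DD23 (limma adjusted p = 0.000718). Crybg1, a beta-gamma-crystallin domain protein, was at least 5.68-fold higher at DD16 than at DD10 and fell 2.28-fold from DD16 to DD23. Crybg3, of the same domain family, was lower in B4KO than in WT by -1.03 on the log2 scale (limma adjusted p = 0.000613), and the slide cannot be told apart from the line there.

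Of 11 ganglion cell genes tested, 2 rose and 3 fell from DD10 to DD23. Pou4f2, a ganglion cell transcription factor, fell 4.03-fold (limma adjusted p = 0.0240).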
